A study of Mus musculus with 2 samples.

Results

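The members described here are 30 germ cell genes of a class known for silencing by DNA methylation in somatic tissue, although several, such as Brdt, Tdrkh, Piwil2 and Tex15, were detected in somatic cells of the control library. They were listed by name, with earlier results of these data known, and all 30 were found among the 32285 genes of the matrices. The experiment compared tumor endothelial cells (ECs) of control mice with those of Dnmt1iECKO mice, in which tamoxifen activates a Cre recombinase driven by the Cdh5 promoter and so deletes floxed Dnmt1 in ECs. One 10x Genomics single-cell RNA-seq library per group was made from CD31+CD45- cells sorted out of YUMMER1.7 melanomas, and each library pooled 3 female mice of 8 to 10 weeks. The labels give the genotype of the Dnmt1iECKO mice as Cdh5CreERT2;Dnmt1fl/fl;ZsGreenlsl/lsl and the control mice as C57BL/6, whereas the methods of the study describe controls that carry the Cre and the ZsGreen reporter without floxed Dnmt1. The labels also place the tumors under the skin of the shoulder and the methods place them in the lung, after injection of the melanoma cells into the tail vein. With 1 library per group there is no replicate, so no test between groups was possible, and every interval below covers counting error only.

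ECs were defined as cells with at least 1 UMI (unique molecular identifier, a counted RNA molecule) of Cdh5 or Pecam1 and with none of Ptprc, Hmga2 or Dcn. There were 5177 such cells in the control library, with 61247379 UMIs and a median of 9898 UMIs per cell, and 2170 in the Dnmt1iECKO library, with 27639113 UMIs and a median of 10080.5. All 6 endothelial markers examined were detected in both libraries, at a summed level of 6420 and 5828 CPM (UMIs of a gene per 1000000 UMIs of the same cells). Epithelial markers were at 3043 and 2640 CPM, mural markers at 83.1 and 169 CPM and proliferation markers at 169 and 254 CPM in the same cells. Dnmt1 itself stood at 48.2 CPM (95% exact Poisson interval 46.4 to 49.9) in control ECs and at 25.8 CPM (24 to 27.8) in Dnmt1iECKO ECs. The 3' tags do not show whether a Dnmt1 UMI came from a recombined allele. The 2 libraries shared 29 of their barcodes, of 9301 and 9522.

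DNMT1 copies CpG methylation onto the new DNA strand each time a cell divides, so cells that lose it lose methylation over successive divisions. A small class of germ cell genes has CpG-rich promoters that are methylated in the soma, and their methylation is the main lock that keeps them off. They include factors of meiosis (the synaptonemal complex that joins paired chromosomes, meiotic cohesin, recombination proteins), of the piRNA pathway that silences transposons in the germ line, and of spermatogenesis.

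The promoters of 6 members are shown because CpG sites are what DNMT1 maintains: Tex19.1, Dpep3, Dazl and Taf7l were without a UMI in control ECs, Mnd1 had the most UMIs in Dnmt1iECKO ECs, and Slc25a31 was found in some of the same cells. Each sequence runs from 250 bases before to 50 bases after the transcription start in RefSeq (GRCm38.p6), 5' to 3' on the strand of the gene, with every CpG in capitals. Tex19.1 lies at chr11:121145893-121146192 on the plus strand and Dpep3 at chr8:105979370-105979669 on the minus strand. Dazl lies at chr17:50293571-50293870 and Taf7l at chrX:134476441-134476740, both on the minus strand. Mnd1 lies at chr3:84155737-84156036 on the minus strand and Slc25a31 at chr3:40708621-40708920 on the plus strand.
Tex19.1: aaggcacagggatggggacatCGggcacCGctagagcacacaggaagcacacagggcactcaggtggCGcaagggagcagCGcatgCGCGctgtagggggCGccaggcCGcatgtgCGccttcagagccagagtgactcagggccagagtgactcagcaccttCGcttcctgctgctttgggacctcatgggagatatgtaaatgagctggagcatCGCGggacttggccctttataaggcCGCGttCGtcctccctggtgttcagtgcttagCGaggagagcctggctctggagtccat
Dpep3: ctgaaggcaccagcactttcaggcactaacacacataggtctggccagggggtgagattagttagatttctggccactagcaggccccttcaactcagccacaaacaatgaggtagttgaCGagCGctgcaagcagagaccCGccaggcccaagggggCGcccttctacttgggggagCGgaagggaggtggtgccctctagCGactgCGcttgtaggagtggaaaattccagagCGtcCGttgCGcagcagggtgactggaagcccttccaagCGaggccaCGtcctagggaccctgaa
Dazl: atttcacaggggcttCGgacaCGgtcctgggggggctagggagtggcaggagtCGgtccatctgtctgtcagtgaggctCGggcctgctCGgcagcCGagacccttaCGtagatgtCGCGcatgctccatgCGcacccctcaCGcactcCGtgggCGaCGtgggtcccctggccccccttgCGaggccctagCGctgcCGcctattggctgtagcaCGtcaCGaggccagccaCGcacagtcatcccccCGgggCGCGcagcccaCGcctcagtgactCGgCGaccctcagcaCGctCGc
Taf7l: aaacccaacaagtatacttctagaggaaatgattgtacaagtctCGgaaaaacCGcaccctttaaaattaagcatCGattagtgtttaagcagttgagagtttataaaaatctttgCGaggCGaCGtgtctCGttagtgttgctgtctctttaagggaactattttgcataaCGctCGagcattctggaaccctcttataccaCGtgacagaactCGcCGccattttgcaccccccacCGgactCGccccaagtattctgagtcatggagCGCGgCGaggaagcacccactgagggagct
Mnd1: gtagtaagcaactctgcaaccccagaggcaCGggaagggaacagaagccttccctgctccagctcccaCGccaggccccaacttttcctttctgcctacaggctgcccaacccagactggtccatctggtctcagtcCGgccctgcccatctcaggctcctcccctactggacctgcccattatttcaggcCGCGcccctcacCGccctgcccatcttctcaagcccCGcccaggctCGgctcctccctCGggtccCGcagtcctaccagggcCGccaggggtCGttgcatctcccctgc
Slc25a31: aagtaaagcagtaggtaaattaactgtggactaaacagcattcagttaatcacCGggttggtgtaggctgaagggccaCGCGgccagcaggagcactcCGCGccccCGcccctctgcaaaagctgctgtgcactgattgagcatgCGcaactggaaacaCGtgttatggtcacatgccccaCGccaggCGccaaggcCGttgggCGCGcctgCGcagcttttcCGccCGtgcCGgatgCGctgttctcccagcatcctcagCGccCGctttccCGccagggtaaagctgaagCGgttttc

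These windows held 16 CpG sites in Tex19.1, 12 in Dpep3, 28 in Dazl, 17 in Taf7l, 12 in Mnd1 and 22 in Slc25a31. Of the 30 members, 27 had a RefSeq promoter in the table used (not Piwil2, Tex11 or Tex15), with 10 to 38 CpG sites and a median of 20. The median over all 32851 listed promoters was 7. The ratio of observed to expected CpG had a median of 0.733 in members (0.363 in Sycp2 to 1.08 in Smc1b) and of 0.384 over all promoters, and 26 of the 27 members were above that overall median. Mnd1 (0.423) and Dpep3 (0.462) were among the lower members on this measure and Taf7l (1.03) among the higher.

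**Figure D1:**
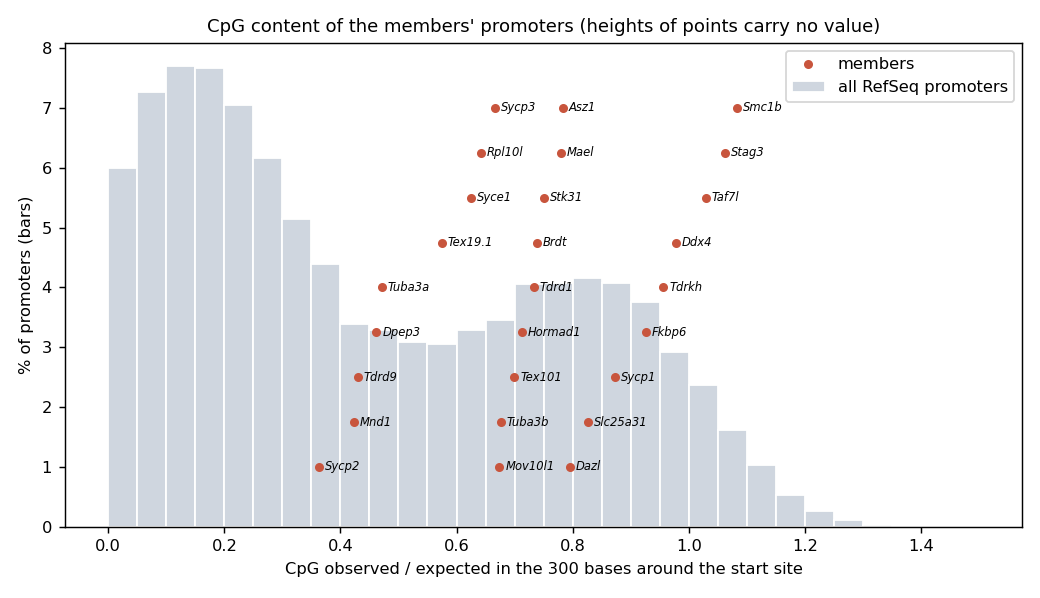
Ratio of observed to expected CpG (x axis) in the 300 bases around the start site: bars give the percentage of all 32851 RefSeq promoters per bin (y axis) and points the 27 members with an entry, placed at staggered heights that carry no value. The members span 0.363 to 1.08, with all but Sycp2 above the overall median of 0.384.

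Germline gene promoters are known for 2 short motifs that recruit a repressive Polycomb-type complex: CACGTG, the E-box bound by MAX partners, and TCCCGC, an E2F-type site. CACGTG reads the same on both strands and was found in 14 of the 27 member promoters (51.9%), against 7.15% of all promoters. TCCCGC or its reverse complement GCGGGA was found in 13 of 27 (48.1%), against 20.0% of all promoters. Among the 14281 promoters with at least 10 CpG sites, as all 27 members have, the shares were 10.9% for CACGTG and 40.3% for TCCCGC. Both motifs stood in 7 member promoters, among them Slc25a31, Ddx4, Sycp1 and Sycp3. Of the sequences shown, Tex19.1 and Mnd1 held TCCCGC only, Taf7l held CACGTG only, and Dpep3 and Dazl held neither in this window. A match to these letters is a description of the sequence and not a bound site.

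In ECs the members together gave 1289 UMIs in the control library (21.0 CPM, interval 19.9 to 22.2) and 829 in the Dnmt1iECKO library (30.0 CPM, 28.0 to 32.1). The log2 ratio of Dnmt1iECKO to control was 0.51 (0.38 to 0.64, exact conditional interval), 0.25 without cells that held Mki67 or Top2a UMIs and 0.60 without cells that held Epcam, Cspg4 or Myh11 UMIs. The share of ECs with any member UMI was similar, a value in which Brdt and Tdrkh weigh most (the log2 ratio of the shares was 0.05, and 0.40 without these genes): 889 of 5177 control ECs (17.2%, Clopper-Pearson interval 16.2 to 18.2) and 386 of 2170 Dnmt1iECKO ECs (17.8%, 16.2 to 19.5) held at least 1 member UMI. After each cell was thinned to 2000 UMIs the shares were 3.93% of 4836 cells and 4.09% of 2003 cells, with 341 control and 167 Dnmt1iECKO ECs left out as shallower. Mnd1 alone gave 33.1% of the member UMIs in Dnmt1iECKO ECs and 9.08% in control ECs. Without Mnd1, an alternative chosen after seeing the data, the summed log2 ratio was 0.07.

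The 30 members fell into a few patterns in ECs. Mael, a piRNA factor, and Rpl10l, a testis-expressed copy of a ribosomal protein gene, had no UMI in either library. Tex19.1, Dpep3, Dazl, Taf7l, Syce1 and Tuba3a had no UMI in control ECs and 39 UMIs together in Dnmt1iECKO ECs, although the control library held more EC UMIs. The reverse pattern held for 5 genes, namely Sycp1, Tex101, Tdrd1, Tdrd9 and Mov10l1, with 6 UMIs together in control ECs and none in Dnmt1iECKO ECs. Both counts of genes take any UMI, and the share of all genes with such a pattern is given below for at least 3 UMIs only. The other 17 members were found in ECs of both libraries.

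Of the 14 members with at least 10 UMIs over ECs of both libraries, 9 were higher and 5 lower in Dnmt1iECKO ECs, with a median log2 ratio of 0.59 (0.003 without cells that held Mki67 or Top2a UMIs, and 1.23 without cells that held Epcam, Cspg4 or Myh11 UMIs). The median over all 17517 genes with that minimum was -0.0016, with quartiles of -0.15 and 0.21. At least 2-fold higher were 5 of the 14, namely Mnd1, Dpep3, Tex19.1, Tuba3b and Sycp3, where 5.17% of all tested genes were 2-fold higher. None of the 14 was at least 2-fold lower, where 3.58% of all tested genes were. Of 20 members with at least 3 UMIs in ECs of 1 library, 4 (Dpep3, Tex19.1, Dazl and Syce1) had none in control ECs, where 0.509% of 19632 genes showed that pattern. None of the 20 showed the opposite pattern, which 2.64% of those genes did. These 4 could reach the minimum only through the Dnmt1iECKO library, as could Dpep3 and Tex19.1 among the 14, and the list was drawn up with earlier results known, so the counts are a description and support nothing. Without cells that held Mki67 or Top2a UMIs, 3 members remained at least 2-fold higher (Mnd1, Dpep3 and Sycp3), and Tex19.1 and Tuba3b then had under 10 UMIs. Without cells that held Epcam, Cspg4 or Myh11 UMIs, 8 members were at least 2-fold higher, the 5 and Tex15, Slc25a31 and Stag3. The shares of all tested genes given above are those of all ECs. None is given for these smaller sets of cells, so the counts of 3 and 8 have no background beside them.

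**Figure D2:**
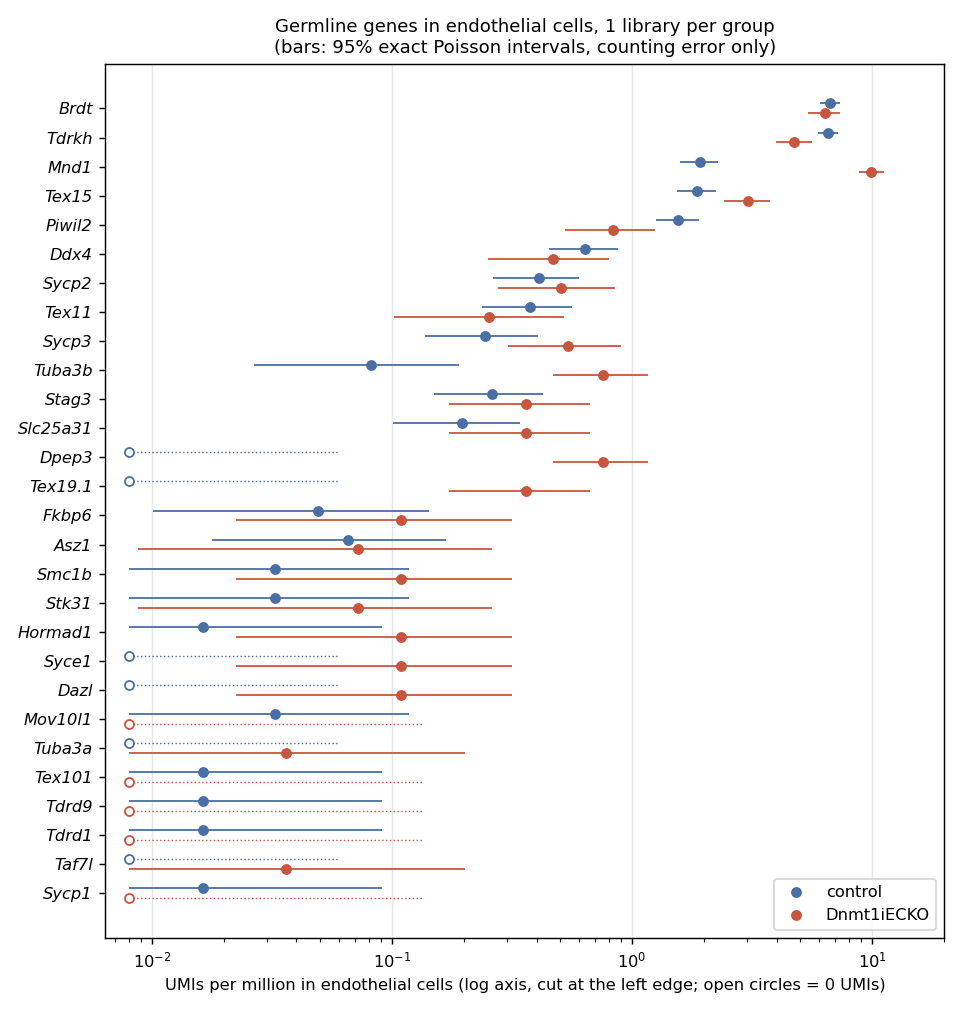
CPM (x axis, log scale) of the 28 members detected in ECs, one point per library with its 95% exact Poisson interval, ordered by UMIs over both libraries; open circles at the left edge are 0 UMIs. Mnd1 stands apart at 1.91 and 9.91 CPM, and Dpep3 and Tex19.1 have points in the Dnmt1iECKO library alone, while the intervals of Brdt overlap.

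Tex19.1 (ENSMUSG00000039329, chr11:121146143-121148319), a germ cell and placenta gene that protects meiotic chromosomes and restrains retrotransposons, was detected in the Dnmt1iECKO library alone. It had 0 UMIs in control ECs and 10 UMIs in 5 Dnmt1iECKO ECs, which held 3, 2, 2, 2 and 1 UMIs. That is 0.362 CPM (0.174 to 0.665), 7.39-fold the control floor of 3 counts per library (0.049 CPM). This is a ratio of point values without an interval, and 0 UMIs in control ECs allow up to 0.060 CPM. No cell of any class in the control library held a Tex19.1 UMI, over 7764 cells and 114412118 UMIs. In the Dnmt1iECKO library the gene had 14 UMIs in 8 cells, and all 8 of these held at least 3 UMIs each of Cdh5 and Pecam1. None of its 4319 immune cells held one.

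Dpep3 (ENSMUSG00000031898, chr8:105973513-105979429), a testis member of the membrane dipeptidase family, gave 0 UMIs in control ECs and 21 UMIs in 14 Dnmt1iECKO ECs, with at most 4 in 1 cell. Its level there was 0.760 CPM (0.470 to 1.16), 15.5-fold the control floor, again a ratio of point values without an interval. A lincRNA, Gm45752, overlaps the gene on the other strand. Unlike Tex19.1, Dpep3 was also found in immune cells, at 0.572 CPM (14 UMIs in 12 cells) in the control library and 0.590 CPM (40 UMIs in 28 cells) in the Dnmt1iECKO library. All of these immune UMIs lay in cells without Cd3e or Cd79a, and the 2295 Dnmt1iECKO immune cells with either T or B cell marker held none over 29707023 UMIs. Over all cells Dpep3 had 16 UMIs in 114412118 in the control library and 64 in 131920187 in the Dnmt1iECKO library. The share of UMIs that came from free RNA in the droplets was not estimated, for Dpep3 or any other gene.

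The other 4 genes without a control EC UMI were at or under the floor of 3 counts, so no fold is given. Dazl, an RNA-binding protein needed for germ cell identity, had 3 UMIs in 2 Dnmt1iECKO ECs. Syce1, of the central element of the synaptonemal complex, also had 3 UMIs in 2 cells. Taf7l, a germ cell form of a general transcription factor subunit, and Tuba3a, a testis alpha-tubulin, had 1 UMI each. Taf7l had no UMI in any control cell. Dazl was found in 4 control immune cells, Tuba3a in 2 UMIs of control immune cells, and Syce1 in 1 control cell of no class, so those 3 were not absent from the control library.

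Mnd1 (ENSMUSG00000033752, chr3:84087933-84155786), which with its partner HOP2 helps strand exchange during meiotic recombination, was the member with the most UMIs in Dnmt1iECKO ECs. It had 117 UMIs in 95 control ECs, which is 1.91 CPM (1.58 to 2.29). In the Dnmt1iECKO library it had 274 UMIs in 78 ECs, which is 9.91 CPM (8.77 to 11.2), and the levels differed 5.19-fold (4.17 to 6.50). The share of ECs with any Mnd1 UMI was 1.84% (1.49 to 2.24) in the control library and 3.59% (2.85 to 4.47) in the Dnmt1iECKO library, a smaller difference than in UMIs. ECs with Mki67 or Top2a UMIs stood at 4.34 CPM in the control library and 25.7 CPM in the Dnmt1iECKO library, and ECs without either at 1.53 (1.22 to 1.90) and 6.35 (5.35 to 7.48) CPM.

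The difference sat in few cells. A single control EC held 4 or more Mnd1 UMIs, with 7. This cell also held 77 UMIs of the pericyte gene Rgs5, 4 of Cspg4 and 2 of Myh11, beside 18 of Cdh5 and 17 of Pecam1. In the Dnmt1iECKO library 16 ECs did (0.737%, 0.422 to 1.20, against 0.0193%, 0.00049 to 0.108), 7 of them held at least 10 and 4 held at least 20, up to 29. These 16 cells carried 187 of the 274 Mnd1 UMIs (68.3%). The cut at 4 UMIs was chosen after seeing the data. Of the 16 cells, 8 had no Mki67 or Top2a UMI, and no control EC without those UMIs held 4 or more of Mnd1. Part of the control Mnd1 lay in ECs with Myh11 UMIs, a smooth muscle gene, at 4.98 CPM (3.59 to 6.73) in 476 cells. The level in Dnmt1iECKO ECs with Myh11 was 5.69 CPM (3.64 to 8.46) in 215 cells, with overlapping intervals. In ECs without Myh11 the levels were 1.42 CPM (1.12 to 1.78) in 4701 control cells and 10.7 CPM (9.39 to 12.1) in 1955 Dnmt1iECKO cells.

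**Figure D3:**
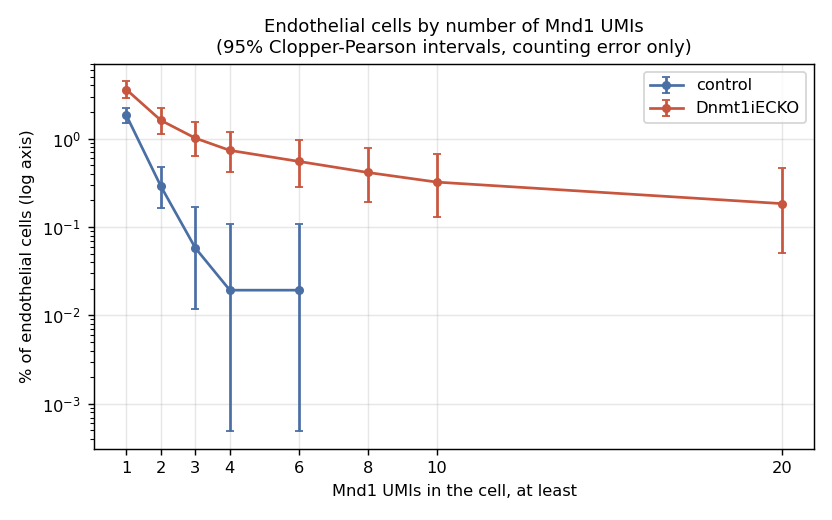
Percentage of ECs (y axis, log scale) with at least the given number of Mnd1 UMIs (x axis) in each library, with 95% Clopper-Pearson intervals. Both curves start between 1 and 4% at 1 UMI. The last control point is at 6 UMIs, from 1 cell that holds 7, while 4 of 2170 Dnmt1iECKO ECs hold at least 20.

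The remaining meiotic and spermatogenic members were rarer. Slc25a31, the testis ADP/ATP carrier of mitochondria, had 12 UMIs in 9 control ECs and 10 in 7 Dnmt1iECKO ECs, a ratio of 1.85 whose interval (0.715 to 4.66) spanned 1. Tuba3b, a near-identical relative of Tuba3a whose reads could be split between the copies, had 5 UMIs in 5 control ECs and 21 in 6 Dnmt1iECKO ECs, a ratio of 9.31 (3.42 to 31.6). A single cell held 9 of those 21 UMIs, 5 of the 6 cells held Mki67 UMIs, and ECs with Mki67 or Top2a UMIs held 20 of the 21. In ECs without either, Tuba3b had 3 UMIs in 52958566 in the control library and 1 in 22536791 in the Dnmt1iECKO library, so no excess was left among these. In ECs with either, it had 2 UMIs in 8288813 (2 of 427 cells) in the control library. The Dnmt1iECKO library held 20 in 5102322 (5 of 248 cells) there, so the excess lay within the ECs with Mki67 or Top2a UMIs. Sycp3, a core of the synaptonemal lateral element, had 15 UMIs in each library, in 13 control and 8 Dnmt1iECKO ECs, a ratio of 2.22 (1.01 to 4.86) that fell to a log2 value of 0.91 without its fullest cells. Chpt1 overlaps Sycp3 on the other strand.

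Sycp2 of the same lateral element had 25 UMIs in 20 control ECs and 14 in 12 Dnmt1iECKO ECs (ratio 1.24, 0.596 to 2.48), with at most 2 in 1 cell. Stag3 of meiotic cohesin had 16 in 13 and 10 in 9 cells (1.39, 0.562 to 3.25), with at most 3 and 2 in 1 cell. Tex11 of meiotic recombination had 23 in 15 and 7 in 7 cells (0.674, 0.244 to 1.62), with at most 5 and 1, and the germ cell RNA helicase Ddx4 had 39 in 37 and 13 in 12 cells (0.739, 0.362 to 1.41), with at most 3 and 2. All 4 intervals included 1. Most Tex11 UMIs lay in ECs that also held Epcam, 13 of the 23 in 91 control cells and 5 of the 7 in 35 Dnmt1iECKO cells. Without cells that held Mki67 or Top2a UMIs, the log2 ratio of Stag3 was -1.09, and without cells that held Epcam, Cspg4 or Myh11 UMIs it was 1.16. Hormad1, a protein of the meiotic chromosome axis, had 1 control and 3 Dnmt1iECKO UMIs, both at or under the floor. Smc1b of meiotic cohesin had 2 and 3 UMIs, Stk31, a kinase-like germ cell protein, had 2 and 2, and Fkbp6 had 3 and 3, the latter in 1 Dnmt1iECKO cell.

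Piwil2 and Tdrkh were lower in Dnmt1iECKO ECs and Tex15 was higher, each with a counting interval clear of 1. Piwil2, a Piwi protein that binds piRNAs, was lower in Dnmt1iECKO ECs, with 95 UMIs in 58 control cells (1.55 CPM, 1.26 to 1.90) and 23 UMIs in 16 Dnmt1iECKO cells (0.832 CPM, 0.528 to 1.25), a ratio of 0.537 (0.325 to 0.853). Tdrkh, a Tudor protein of mitochondria that trims piRNAs with its partners, was also lower, with 401 UMIs in 361 cells (6.55 CPM, 5.92 to 7.22) and 131 in 106 cells (4.74 CPM, 3.96 to 5.62), a ratio of 0.724 (0.590 to 0.884). Tdrkh shares its locus with Oaz3 on the other strand. Asz1, which anchors piRNA factors to mitochondria, had 4 and 2 UMIs, and Mov10l1, Tdrd1 and Tdrd9 had at most 2, too few for a direction.

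Brdt, a testis bromodomain protein that binds acetylated histones, had a ratio whose interval included 1, with 409 UMIs in 281 control ECs (6.68 CPM, 6.05 to 7.36) and 175 in 132 Dnmt1iECKO ECs (6.33 CPM, 5.43 to 7.34), a ratio of 0.948 (0.790 to 1.14). A pseudogene, Gm8152, overlaps it. Brdt and Tdrkh together made up 810 of the 1289 control member UMIs. When both were left out, the log2 ratio of the summed members was 1.27 and that of the share of ECs with a member UMI 0.40. Tex15, which directs silencing of transposons in the male germ line, was higher in Dnmt1iECKO ECs (1.86 and 3.04 CPM, ratio 1.63, 1.22 to 2.18). Most of its UMIs lay in the few ECs that also held Epcam, an epithelial gene: 84 of 114 in 91 control cells and 52 of 84 in 35 Dnmt1iECKO cells. In ECs without Epcam its levels were 0.510 CPM (0.344 to 0.727) and 1.20 CPM (0.821 to 1.70).

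Mnd1 was more frequent in Dnmt1iECKO ECs that held one of the rarer germline genes. In the Dnmt1iECKO library 24 ECs held a UMI of at least 1 of the 6 genes that control ECs lacked, a rule set after seeing the values. Of these 24 cells, 17 held at least 1 further member and 12 held Mnd1 (50%), against 66 of the other 2146 ECs (3.08%). A single cell held more than 1 of the 6 genes, so that Tex19.1 was found in 1 of the 14 ECs with Dpep3 (7.14%, 0.181 to 33.9) and in 4 of the 2156 without (0.186%). Mnd1 was present in 8 of the 14 ECs with Dpep3 (57.1%, 28.9 to 82.3), in 2 of the 5 with Tex19.1, in 1 of the 2 with Dazl and in 4 of the 7 with Slc25a31 (57.1%, 18.4 to 90.1). These cells were deep, with a median of 22997.5 UMIs, and among ECs with at least 10000 UMIs Mnd1 was found in 8 of 13 with Dpep3 (61.5%) and 59 of 1083 without (5.45%). In control ECs none of the 9 cells with Slc25a31 held Mnd1 (0 to 33.6%, which overlaps the interval in Dnmt1iECKO ECs), against 1.84% of those without. Of the 57 control ECs with Tex15, 5 held Mnd1 (8.77%, 2.91 to 19.3), against 1.76% of those without. In Dnmt1iECKO ECs 4 of the 33 cells with Tex15 held Mnd1 (12.1%, 3.40 to 28.2), against 3.46% of those without.

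Conversely, 9 of the 16 ECs with at least 4 Mnd1 UMIs (56.3%, 29.9 to 80.3) held 1 of the 6 genes, against 15 of the 2154 ECs with fewer (0.696%, 0.390 to 1.15) and 14 of 1080 such ECs with at least 10000 UMIs (1.30%, 0.711 to 2.17). For comparison, Brdt and Tdrkh, the members with the most UMIs over both libraries, did not concentrate in this way: Mnd1 was found in 7 of 132 Dnmt1iECKO ECs with Brdt (5.30%, 2.16 to 10.6) and 3.48% of those without, and in 7 of 106 with Tdrkh (6.60%, 2.70 to 13.1) and 3.44% of those without. At least 3 members were found in 13 Dnmt1iECKO ECs and 6 control ECs, and the most in 1 cell was 5 and 4.

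The first cells described here were picked from those with the most members, so they illustrate the pattern and cannot support it. A Dnmt1iECKO EC with 18970 UMIs, 16 of Cdh5 and 5 of Pecam1, held 11 UMIs of Mnd1, 2 of Tex19.1 and 1 each of Slc25a31, Asz1 and Brdt, and no Dnmt1. Another with 38959 UMIs held 23 of Mnd1, 4 of Slc25a31 and 1 each of Dpep3 and Tex15, and no Dnmt1. One more, with 32238 UMIs, held 22 of Mnd1 and 1 each of Dazl and Slc25a31, with 3 UMIs of Dnmt1. The EC with the most Mnd1 (29 UMIs) also held 1 UMI each of Dpep3 and Sycp2 and none of Dnmt1. Other cells of the plot held a single member. An EC with 15977 UMIs held 12 of Mnd1 and no other member, and an EC with 29189 UMIs held 1 of Dpep3 and no other member.

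**Figure D4:**
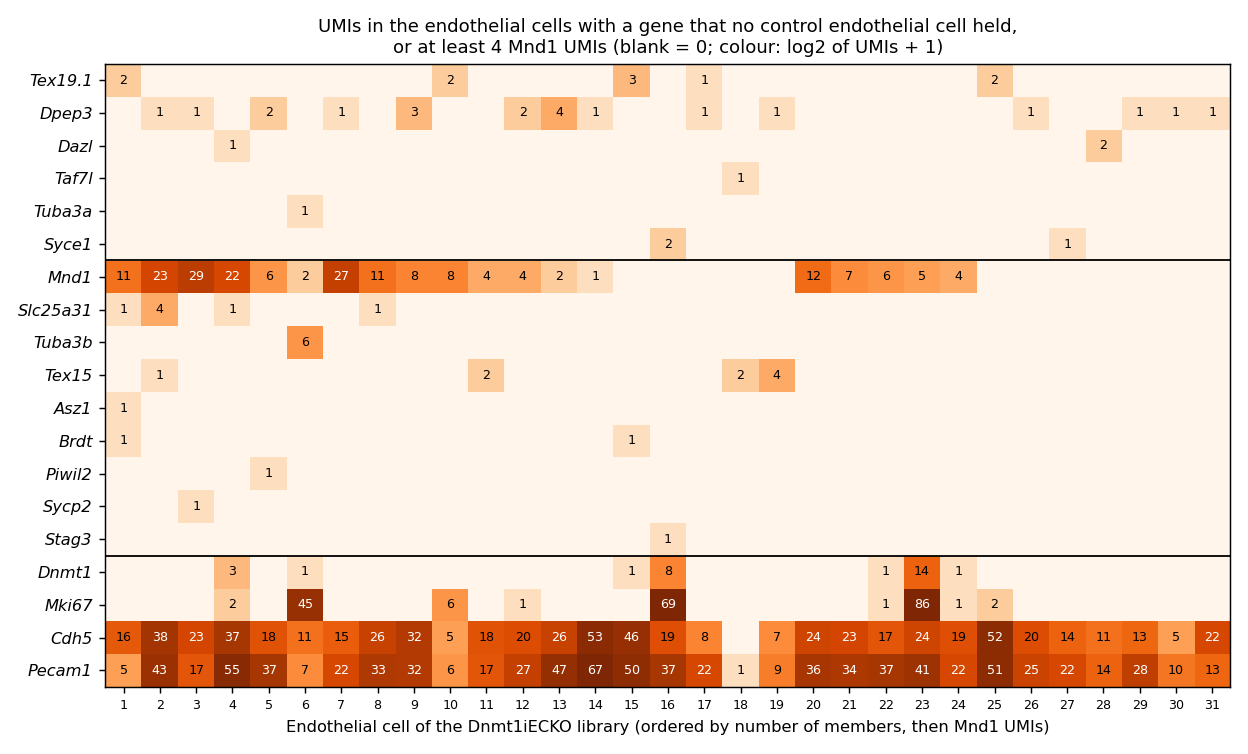
UMIs per cell (numbers; colour is log2 of UMIs + 1) in the 31 Dnmt1iECKO ECs that held 1 of the 6 genes absent from control ECs or at least 4 Mnd1 UMIs; columns are cells and rows are members, with Dnmt1, Mki67, Cdh5 and Pecam1 below. Dnmt1 is present in 7 of the 31 cells (22.6%), against 22.5% of the other ECs, which are shallower. Among cells with at least 10000 UMIs it is present in 7 of 30 (23.3%), against 368 of 1066 others (34.5%). The highest Dnmt1 counts, 14 and 8, stand in cells with 86 and 69 Mki67 UMIs.

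The Dnmt1 levels of ECs with any member UMI and of the other ECs had overlapping intervals. They were 48.1 CPM (44.8 to 51.7) against 48.2 CPM (46.2 to 50.2) in the control library and 25.2 CPM (21.9 to 28.9) against 26.1 CPM (23.9 to 28.5) in the Dnmt1iECKO library. Without cells that held Mki67 or Top2a UMIs, the log2 ratio of cells with a member to cells without was -0.20 (-0.35 to -0.06) in the control library and -0.66 (-1.01 to -0.32) in the Dnmt1iECKO library.

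Among the 24 Dnmt1iECKO ECs with 1 of the 6 genes, 20 held no Dnmt1 UMI, so that 16.7% held one (4.74 to 37.4), against 22.6% of the other ECs. Their summed Dnmt1 was 13 UMIs (23.0 CPM, 12.2 to 39.3) against 25.9 CPM (24 to 27.9) in the other ECs, and 8 of the 13 UMIs lay in 1 cell with 69 Mki67 UMIs. The 16 of these cells without Mki67 or Top2a held 1 Dnmt1 UMI over 351915 UMIs (2.84 CPM, 0.072 to 15.8), against 22.6 CPM (20.7 to 24.7) in other ECs without those genes, a log2 ratio of -2.99 (-8.30 to -0.51). Summed Dnmt1 was not lower in cells with at least 4 Mnd1 UMIs. The 16 cells held 19 UMIs (47.9 CPM, 28.9 to 74.8) against 25.5 CPM (23.7 to 27.5) in the other ECs, a log2 ratio of 0.91 (0.17 to 1.56). Of the 19 UMIs, 14 lay in 1 cell with 86 Mki67 UMIs. Dnmt1 was held by 4 of the 16 cells (25%, 7.27 to 52.4), against 22.5% of the other ECs. All 16 had at least 10000 UMIs, and 371 of 1080 other ECs of that depth held Dnmt1 (34.35%, 31.5 to 37.3). The 8 of the 16 cells without Mki67 or Top2a held no Dnmt1 UMI over 179880 UMIs, which allows up to 20.5 CPM. Among cells with at least 10000 UMIs, 4 of 23 cells with 1 of the 6 genes (17.4%, 4.95 to 38.8) and 371 of 1073 others (34.6%, 31.7 to 37.5) held Dnmt1. The restriction to cells without Mki67 or Top2a UMIs was added for these cells after seeing the data.

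Of the 31 cells of the plot of UMIs per cell, 30 held both Cdh5 and Pecam1. The exception, the only EC with Taf7l, entered through 1 Pecam1 UMI, with no Cdh5 and 1 UMI of the T cell gene Cd3e. Summed over the 31 cells, Cdh5 and Pecam1 were at 895 and 1172 CPM, against 1316 and 1245 CPM in the other Dnmt1iECKO ECs. The endothelial genes Cldn5 (590 against 1089 CPM), Kdr (522 against 746) and Tek (354 against 560) were lower in them and Egfl7 was at 868 against 909. Of markers of other cells, Epcam and Krt8 were at 0 in them (10.7 and 11.1 CPM in other ECs), as were Sox10, Pmel, Mlana, Csf1r and Nkg7, which had at most 1.90 CPM in other ECs. The melanocyte factor Mitf had 12 UMIs in 7 of the 31 cells (16.2 against 23.4 CPM), Lyz2 was at 25.7 CPM (424 in other ECs) and Sftpc at 16.2 CPM (2557). The immune genes Cd3e, Cd79a and S100a8 had 1, 2 and 4 UMIs. The smooth muscle genes Acta2 (106.8 against 105.8 CPM) and Myh11 (43.3 against 48.1) were near their levels in other ECs, each from 2 of the 31 cells. The markers of mature male germ cells Prm1, Prm2, Tnp1 and Acrv1 were all at 0 in Dnmt1iECKO ECs. Requiring UMIs of both Cdh5 and Pecam1 left 23 of the 24 cells with 1 of the 6 genes.

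Of the subtype markers, all 5 of vein were higher in the 31 cells than in other Dnmt1iECKO ECs, and 3 of the 4 of general capillaries were lower. Among the capillary markers Plvap, of fenestrated and tumor endothelium, stood at 1118 CPM against 496 CPM in other ECs, whereas Gpihbp1 stood at 303 against 441, Kit at 234 against 276 and Bmp6 at 206 against 490. The venous adhesion molecule Selp was at 887 against 354 CPM. Ackr1, a chemokine-binding protein of venules, was at 98.7 against 21.6 CPM, with all 73 of its UMIs in 3 of the 31 cells. The 5 aerocyte markers were all lower, with Car4 at 161 against 582 CPM and Ednrb at 75.7 against 344. All 5 artery markers were also lower. Proliferation markers were higher in sum, with Mki67 at 288 against 80.9 CPM, and 3 of the 31 cells held at least 10 Mki67 UMIs. These cells were picked by their germline UMIs, and the comparison has no replicate.

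ECs were also assigned to subtypes by at least 3 detected markers. One of the 6 genes was found in 13 of 1114 general capillary cells (1.17%, 0.623 to 1.99), 3 of 104 vein cells (2.88%, 0.599 to 8.20), 1 of 375 aerocytes (0.267%, 0.0068 to 1.48) and 0 of 66 artery cells (up to 5.44%). These intervals overlap. Mnd1 in general capillary cells was 1.84 CPM (1.41 to 2.35) in the control library and 10.4 CPM (8.81 to 12.2) in the Dnmt1iECKO library, and in vein cells 1.85 (0.224 to 6.68) and 30.8 CPM (23.0 to 40.2). In aerocytes it was 0.973 (0.503 to 1.70) and 1.46 CPM (0.537 to 3.18), which overlap. In artery cells Mnd1 was lower in the Dnmt1iECKO library, with 5 UMIs (5.38 CPM, 1.75 to 12.6) and 1 UMI (1.22 CPM, 0.031 to 6.79), which also overlap. ECs assigned to no subtype held one of the 6 genes in 7 of 511 cells (1.37%, 0.553 to 2.80), and Mnd1 in them was at 2.77 (1.93 to 3.85) and 9.73 CPM (7.48 to 12.5). Vein cells with at least 4 Mnd1 UMIs numbered 3.

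Some cells outside the EC definition looked endothelial and carried the same genes. A Dnmt1iECKO cell with 14383 UMIs that held a single UMI of Hmga2, and was therefore put with the putative tumor cells, had 10 UMIs of Cdh5 and 20 of Pecam1. It held 20 UMIs of Mnd1, 4 of Taf7l, 3 of Dpep3 and 1 each of Tex19.1, Slc25a31 and Tuba3b, 6 members in all, and no Dnmt1. A cell with 1 Dcn UMI, 55 of Cdh5 and 48 of Pecam1 held 2 Tex19.1 UMIs and no Dnmt1, and a cycling cell with 1 Hmga2 UMI held 1 Tex19.1 and 2 Tuba3b UMIs. When ECs were instead taken as all cells with at least 3 UMIs each of Cdh5 and Pecam1, cells with at least 4 Mnd1 UMIs numbered 2 in the control and 19 in the Dnmt1iECKO library. The only control cell of this kind with 1 of the 6 genes was an immune cell with 19 Ptprc UMIs that held 1 Dpep3 UMI.

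The classes in which Dnmt1 was not targeted gave the background. Over all members the log2 ratio of Dnmt1iECKO to control was 0.04 (-0.10 to 0.18) in 1303 and 4319 immune cells (at least 1 Ptprc UMI and none of Hmga2), 0.15 (-0.09 to 0.40) in 248 and 295 stromal cells (Dcn) and 0.20 (-0.02 to 0.42) in 476 and 419 putative tumor cells (Hmga2), against 0.51 in ECs. In the 44 and 187 cells with both Ptprc and Hmga2 it was 0.48 (-0.08 to 1.09), and in the 516 and 449 cells of no class -0.10 (-0.36 to 0.15). Dnmt1 was at 51.7 and 62.6 CPM in immune and at 82.7 and 88.6 CPM in putative tumor cells, and lower in the Dnmt1iECKO library in stromal cells, at 31.2 and 22.3 CPM, where endothelial markers summed to 979 and 761 CPM. Of the putative tumor cells, 197 control and 141 Dnmt1iECKO cells held a single Hmga2 UMI.

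Several members had a home outside ECs, in both libraries. Mnd1 was highest in putative tumor cells, at 10.3 (8.66 to 12.1) and 12.5 CPM (11.0 to 14.3). Cells with several Mnd1 UMIs were also found outside ECs, in the control library too. The most in 1 control and 1 Dnmt1iECKO cell were 8 and 20 in putative tumor cells, 3 and 10 in immune and 5 and 6 in stromal cells. They were 9 and 7 in cells with both Ptprc and Hmga2, and 12 and 2 in cells of no class. In immune cells, at which the deletion was not aimed, Mnd1 stood at 1.10 CPM in the control library (0.727 to 1.60). There it was 2.11-fold higher (1.40 to 3.31) in the Dnmt1iECKO library, at 2.33 CPM. Immune cells with Cd3e and no Cd79a, 343 of 1303 and 1531 of 4319, stood at 0.492 (0.0596 to 1.78) and 3.77 CPM (2.95 to 4.75), and those with neither gene at 1.06 (0.614 to 1.69) and 1.44 CPM (1.09 to 1.88). Sycp2 and Piwil2 were found mainly in immune cells without Cd3e or Cd79a, Sycp2 at 4.59 (3.61 to 5.76) and 8.06 CPM (7.18 to 9.01) and Piwil2 at 11.9 (10.2 to 13.7) and 9.16 CPM (8.23 to 10.2). Tex15 stood at 59.4 (51.0 to 68.8) and 40.3 CPM (31.1 to 51.3) in cells of no class with Epcam, and Tex11 at 7.01 and 6.82 CPM in the same cells. Brdt and Tdrkh were detected in each class of both libraries. In stromal cells Sycp3 had 2 control and 14 Dnmt1iECKO UMIs, a ratio of 6.77 (1.55 to 61.3), and in immune cells Stag3 had 3 and 33, a ratio of 3.97 (1.25 to 20.3). Hormad1 was found in immune cells, with 9 and 23 UMIs (0.923, 0.412 to 2.27), and Smc1b had 5 and 6 there (0.434, 0.110 to 1.80). In putative tumor cells Tdrd9 had 5 and 9 UMIs (1.38, 0.415 to 5.24). Some counts rested on single cells: 1 control stromal cell held 11 UMIs of Fkbp6 and 1 control immune cell held 9 of the 10 UMIs of Asz1.

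**Figure D5:**
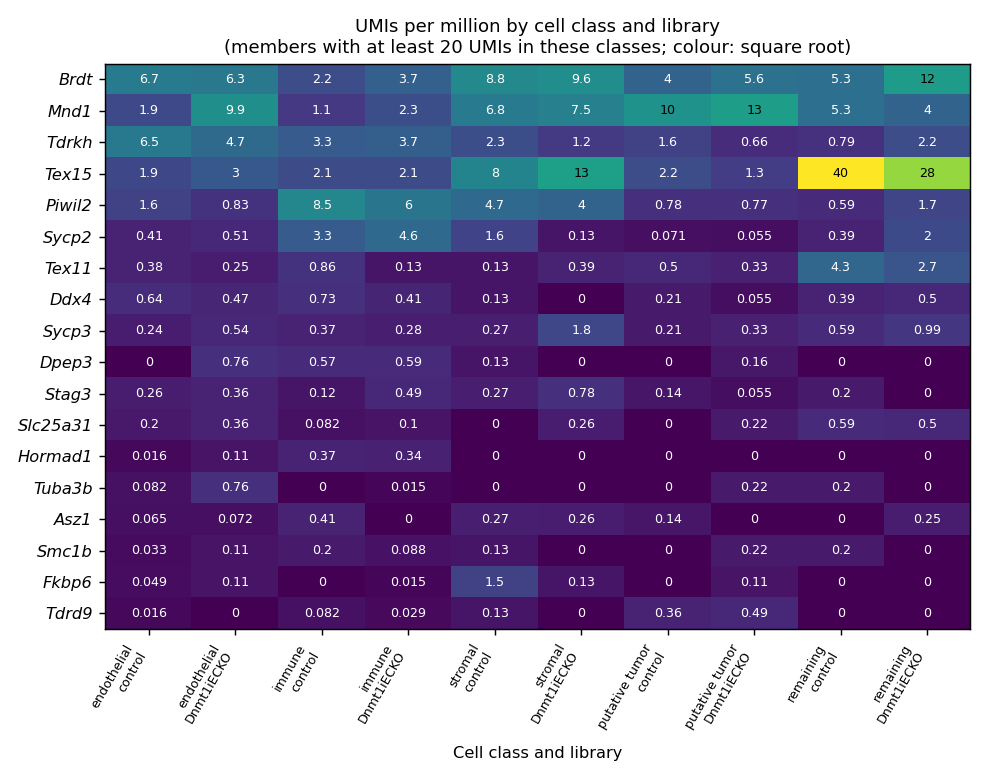
CPM (numbers; colour is the square root) of the 18 members with at least 20 UMIs in the 5 classes shown, by cell class and library. Tex15 is highest in the remaining cells (39.8 and 28.1), Mnd1 in putative tumor cells and Dnmt1iECKO ECs, and Dpep3 is at 0 in control ECs but not in immune cells of either library.

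A further list of 45 germline genes that are not members, all present in the matrices, was examined in the same way. Of these, 21 had at least 10 UMIs over ECs of both libraries, with 8 higher and 13 lower in Dnmt1iECKO ECs and a median log2 ratio of -0.08. The counting interval lay above 0 for 1 of the 21 and below 0 for 4 (Rec8, Majin, Tex14 and Msh5). Only Rnf17, a Tudor protein of germ cell granules, was at least 2-fold higher (6 and 10 UMIs, log2 ratio 1.89, 0.28 to 3.63), where 5.17% of all tested genes were. At least 2-fold lower were 3 of the 21, where 3.58% of all tested genes were. Of these, Rec8 of meiotic cohesin had 271 UMIs in 160 control ECs and 28 in 19 Dnmt1iECKO ECs (log2 ratio -2.13, -2.74 to -1.56), and Majin, which ties meiotic telomeres to the nuclear membrane, had 1603 and 336 (-1.11, -1.28 to -0.94). Terb1, its partner, had 16 and 3 (-1.27, -3.69 to 0.54). Sohlh2, a germ cell transcription factor, had 0 control and 3 Dnmt1iECKO UMIs, and Rhox5, a gene often used as a readout of lost methylation, had 22 UMIs in 7 control ECs and 19 in 9 Dnmt1iECKO ECs (0.94, -0.03 to 1.89). No UMI of 10 of the 45 genes was found in ECs.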

How the data were processed

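Each deposited matrix holds raw counts of UMIs for every gene in every called cell, which the submitters' processing notes tie to Cell Ranger and mm10. The members and lists were chosen with earlier results of these data known. Cells with over 10% mitochondrial counts or under 500 genes were removed, leaving 8021 control and 8102 Dnmt1iECKO cells. The top Scrublet scores at 0.4% per 1000 cells (257 and 263 cells; scanpy 1.11.5) were removed as doublets. Counts were summed over cells and given as CPM. Software: scipy 1.17.1 for intervals, pandas 2.3.3 and numpy 2.4.6 for tables, matplotlib 3.10.9 for plots, all under Python 3.11.15. Intervals are 95%: exact Poisson for levels, Clopper-Pearson for shares and exact conditional for ratios. The 2-fold rule was tested on simulated data. Genes at 0 in a library were set to a floor of 3 counts. Fully described are members with at least 10 UMIs over ECs or in another class, other germline genes at least 2-fold apart, and further genes chosen after their values were seen. Gene positions come from GENCODE for GRCm38. Alternatives were other cell filters, EC definitions and member sets, thinning to 2000 UMIs and median-of-ratios size factors.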

Additional observations from a re-analysis of the deposited data

Results flagged for a closer look

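One result lies in data that the comparisons did not use. In cells with EC markers that the filters left out, Mnd1 stood at 10.2 CPM (9 UMIs in 242 cells) in the Dnmt1iECKO library and at 2.01 CPM (8 UMIs in 545 cells) in the control library. A single cell, with 10.3% mitochondrial counts and no Dnmt1 UMI, held 7 of the 9 UMIs. None of the left-out cells held a UMI of the 6 genes that control ECs lacked.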

How the results depend on the processing

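No paired analysis was possible because each group has 1 library. Values are log2 ratios of Dnmt1iECKO to control ECs unless said otherwise. The summed members (0.51) gave 0.25 without Mki67 or Top2a cells, 1.27 without Brdt and Tdrkh and, in an alternative chosen after seeing the data, 0.0695 without Mnd1. The share of ECs with a member UMI (0.05) gave 0.40 and that with several members (0.64) gave 2.17 without Brdt and Tdrkh. The latter reversed to -0.31 after thinning to 2000 UMIs, where 3 control and 1 Dnmt1iECKO cells were left. The count of members at least 2-fold higher (5) was 8 without Epcam, Cspg4 or Myh11 cells. It was 4 with both Cdh5 and Pecam1, where Sycp3 stood at 0.94. It was 3 both without Mki67 or Top2a cells and without the cell with most UMIs of each member. The count lower (0) was 1 with both Cdh5 and Pecam1, without Mki67 or Top2a cells, and without those fullest cells. No share over all genes is given for these alternative counts. Dnmt1 in cells with a member over other ECs (-0.001 in control, -0.05 in Dnmt1iECKO) gave 0.15 in control without Epcam, Cspg4 or Myh11 cells, -0.20 and -0.66 without Mki67 or Top2a cells, 0.30 in Dnmt1iECKO without Brdt and Tdrkh, and -0.67 and -0.82 after thinning, from 11 and 2 Dnmt1 UMIs. The cause of these shifts was not tested. The median member ratio (0.59) ranged from 0.003 to 1.23 and that of the other germline genes from -0.15 to -0.05. Of 89 alternatives to the main results, 71 stayed within the spread set for them. Size factors shifted every ratio by -0.0028.

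With 1 library per group, differences between mice cannot be told apart from those between groups. Genes with under 10 UMIs have wide intervals, and 3 counts in Dnmt1iECKO ECs correspond to 0.109 CPM.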
